A study of Mus musculus with 8 samples.

Results

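Gene expression in neurons activated by auditory fear conditioning was compared with that in neurons activated by footshock alone, in the temporal association cortex (TeA) of the mouse. The comparison took 5 pools of Arc-dVenus+ cells, 3 from fear conditioned (FC) mice (FC39, FC40 and FC23) and 2 from shock-only mice (Shock30 and Shock33). Its genes were chosen without regard to this contrast. A gene entered if it had a count in at least 1 of the 5 pools and a summed level of at least 20 CPM (counts scaled to the library total) over the 8 libraries of the series, which holds for 12453 of 15437 genes.

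All mice were male Arc-dVenus +/- animals on the C57BL/6 strain at postnatal day 60 to 90, sacrificed 6 h after behavior. FC mice received 7 pairings of a tone (10 s, 6 kHz) with a footshock (1 s, 0.5 mA), and shock-only mice received 7 footshocks and no tone, so that the groups share the shock and differ in the tone. In this line the Arc promoter drives a destabilized Venus fluorophore, and the sorted cells are those bright enough to be aspirated by hand from dissociated TeA. The numbers in the names give the cells pooled (39, 40, 23, 30 and 33), whereas the extraction protocol gives 35 to 60 cells per sample. RNA was amplified from each pool before sequencing, and each pool is taken as 1 sample with no technical repeat, so the spread between pools holds animal, cell sampling and amplification together. Other behavioral conditions were not analysed here, and 3 bulk-tissue libraries of TeA (1 FC and 2 shock only) served as reference.

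As background, neuronal firing opens calcium channels and receptors, and calcium acts through CaM kinases, cyclic AMP and MAP kinase on CREB and serum response factor. These induce immediate-early transcription factors of the AP-1, Egr and Nr4a families within minutes, and effector genes that act at synapses, on channels and on secreted signals over the following hours. TeA is a higher-order auditory area with projections to the lateral amygdala, where tone and shock signals meet in fear learning. Clock genes, stress hormone targets and chaperones are regulated in cortical neurons as well.

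The pools held 10223586 to 24151755 counts. Pearson's r of log2(CPM + 1) over the 12453 genes was 0.851 to 0.869 for pairs of FC pools, 0.817 to 0.848 for an FC and a shock-only pool, and 0.795 for both shock-only pools, which therefore resembled each other less than any other pair. Between Shock30 and Shock33, 43.3% of genes differed by more than 2-fold, against 31% to 34.2% for pairs of FC pools (these are values across genes, which are not independent replicates). The estimated coefficient of variation between pools of a group was 78.6%. Genes with no count made up 1.73% to 2.86% of the tested genes in the FC pools and 4.17% to 5.85% in the shock-only pools. Among the genes tested, 65 had counts in every FC pool and none in either shock-only pool, and 5 had the reverse.

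The cells were excitatory neurons by their markers, in both groups. Slc17a7, which loads glutamate into synaptic vesicles, stood at 903, 689 and 1011 CPM in FC39, FC40 and FC23 and at 808 and 926 CPM in Shock30 and Shock33, and all 15 pan-excitatory markers had counts in every pool. Gad1, which makes GABA in inhibitory neurons, was at most 0.3 CPM in a pool and 85.8 to 102 CPM in bulk tissue. Slc32a1, the GABA vesicle transporter, had at most 3 counts over the 5 pools together. The 15 inhibitory markers tested summed to 974 to 1371 CPM in FC pools and 1575 and 1032 CPM in shock-only pools. Their sum in bulk tissue was 1800 to 1847 CPM. Most of the sum in the pools was Cck, given below, and Reln and Gad2 had the next highest levels. The median marker had a mean of 0.148 CPM, and 3 to 5 of the 15 had no count in a given pool. Summed levels of the 10 microglia markers were 5.52 to 43 CPM in FC pools, 25.3 CPM in Shock30 and 80.8 CPM in Shock33, against 366 to 402 CPM in bulk tissue. C1qb, a complement subunit of microglia, had no count in the 3 FC pools, 0.0414 CPM in Shock30 and 29.6 CPM in Shock33. The 6 oligodendrocyte precursor markers summed to 5.46 to 29.3 CPM in FC pools, 58.7 CPM in Shock30 and 7.92 CPM in Shock33, with Pdgfra at 7.58 CPM in Shock30 and at most 0.0905 CPM elsewhere. The medians of both lists changed sign when the pool with the high sum was left out. The 16 astrocyte markers (1106 to 1783 CPM in FC pools, 1691 and 1473 CPM in shock-only pools) overlapped between groups. Their sum in bulk tissue was 10092 to 11546 CPM. The 8 oligodendrocyte markers tested summed to 81.4, 78.3 and 69 CPM in FC pools and to 36 and 66.4 CPM in shock-only pools, against 386 to 420 CPM in bulk tissue. Of these 7 had a positive estimate (median 0.55), and 1 was above in every FC pool. The 5 red blood cell genes summed to 0.679 to 15.7 CPM in FC pools and 23.3 and 1.76 CPM in Shock30 and Shock33. Although these sums overlap, 4 of the 5 genes (80%) lay below in every FC pool, against 8.21% of all genes. Their lowest estimate and lower quartile were both -5.35, and their median and upper quartile were both -0.76. Genes thus shared estimates and are not independent values, at a median level of 2.42 CPM. The median of the list ranged from -1.04 to -0.45 when a pool was left out. The 10 endothelial markers summed to 22 to 77.1 CPM in FC pools and to 32.2 and 16.2 CPM in shock-only pools, against 317 to 327 CPM in bulk tissue. Slc2a1, Esam and Itm2a had the highest levels in the pools. Pecam1, Cdh5, Tek and Ly6c1 each had at most 3 counts over the 5 pools. The part of these cells in any gene's difference was not tested.

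No gene passed the test for a difference between FC and shock-only pools. Under edgeR's quasi-likelihood test with Benjamini-Hochberg adjustment over 12453 genes, 0 genes (0%) passed both an adjusted p of 0.05 and a 2-fold change. The lowest adjusted p was 0.77. At an unadjusted p under 0.05 there were 425 genes higher in FC pools (3.41% of those tested) and 368 lower (2.96%). All 3 FC pools lay above both shock-only pools for 1627 genes (13.1%) and below both for 1023 genes (8.21%). These shares are the background for every count below. Pools were compared in CPM, without the scaling factors (TMM) of the fit. These factors were 1.01 to 1.05 in FC pools and 0.97 and 0.98 in shock-only pools. CPM thus set FC pools slightly higher against shock-only pools than the fit did. Because of the wide spread, the 95% interval of a log2 fold change reached 1.88 to either side of its estimate at the median gene. At the median of the 2167 genes with at least 100 CPM it reached 0.76. These intervals hold for 1 gene without adjustment and are not the limit of detection over all genes. Estimates beyond 2-fold were held by 3736 genes (30%), none of which passed. Limma-voom called 0 genes, the exact test of edgeR called 3 higher and 4 lower, and DESeq2 called 98 higher and 49 lower. Of the 147 genes called by DESeq2, the groups did not overlap in 132 and overlapped in 15, 143 had an unadjusted p under 0.05 in the quasi-likelihood test, and in 87 a single pool held over 50% of the summed CPM of the 5 pools. Higher and lower are used below for levels and estimates, none of which passed the adjusted threshold.

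Among genes with a mean of at least 20 CPM in their higher group, the lowest p belonged to Camk1g. This gene encodes CaM kinase I gamma, a calcium-activated kinase of neurons (mm9, chromosome 1, 195172540 to 195196491, minus strand). Camk1g had 12.1, 28.2 and 9.1 CPM in FC39, FC40 and FC23 and 103 and 180 CPM in Shock30 and Shock33. Every FC pool was below both shock-only pools, and the FC pools were near the 15.9 to 19.6 CPM of bulk tissue. Its log2 fold change was -3.16 ± 0.59 (SE), with an unadjusted p of 0.000595 and an adjusted p of 0.77 by edgeR's quasi-likelihood test. With edgeR's exact test the adjusted p was 0.0117, and with DESeq2 it was 9.86e-05.

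The other leading genes that were lower in FC pools are regulators of transcription, the cytoskeleton and the cell cycle as well as metabolic and secretory proteins. Zbtb7a, a zinc finger repressor, had 143, 151 and 200 CPM in FC pools and 362 and 436 CPM in shock-only pools (log2 fold change -1.34 ± 0.28). Etv1, an ETS family transcription factor, had 7.4, 12.5 and 16.2 CPM against 47.2 and 144 CPM (-3.04 ± 0.64). Both were below the shock-only pools in each FC pool, and the ranges within a group were narrower for Zbtb7a than for Etv1. Ccnd2, which encodes cyclin D2, had 30.9, 39.6 and 32.7 CPM against 128 and 106 CPM (-1.84 ± 0.40). Arhgdia, a regulator of small GTPases, had 135, 142 and 153 CPM against 281 and 371 CPM (-1.25 ± 0.27). In this gene the FC pools differed little among themselves. Kif20a, a kinesin known from dividing cells, had 20.3, 11.3 and 6.79 CPM against 107 and 59.5 CPM. Coq5, a methyltransferase of coenzyme Q synthesis, had 19.4, 22.2 and 10 CPM against 68 and 108 CPM, and Resp18, a protein of secretory granules, had 8.58, 4.43 and 15.6 CPM against 80.4 and 59.8 CPM. Tmem50b, a membrane protein, had 48.6 to 62.4 CPM against 126 and 234 CPM. None of these overlapped between groups. Ccdc62 rested on 1 pool, with 42 CPM in Shock33, 1.2 CPM in Shock30 and at most 0.0587 CPM in FC pools.

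Most genes that led on the higher side were near absent from both shock-only pools. Pdia4, a disulfide isomerase that folds proteins in the endoplasmic reticulum (mm9, chromosome 6, 47746141 to 47763511, minus strand), had 85.8, 22.9 and 22.1 CPM in FC pools and 0.952 and 1.47 CPM in shock-only pools (log2 fold change 5.09 ± 1.03). Thoc5, a subunit of the THO complex in mRNA export (chromosome 11, 4795323 to 4828870, plus strand), had 11.3, 13.7 and 71.5 CPM against 0.29 and 0.0978 CPM (7.16 ± 1.46). Bulk tissue held 24.3 to 32.6 CPM of Pdia4 and 15.5 to 16.2 CPM of Thoc5, whichever the condition. Abcc8, the sulfonylurea receptor subunit of ATP-sensitive potassium channels, had 36.2, 26.8 and 40 CPM against 2.86 and 1.86 CPM (3.78 ± 0.82). Palm, which encodes the membrane protein paralemmin, had 36.8, 19.4 and 120 CPM against 2.32 and 3.03 CPM, and Micall1, a protein of recycling endosomes, had 48.8, 37.6 and 25.4 CPM against 3.81 and 1.57 CPM. The groups did not overlap in any of these, although Palm ranged widely among the FC pools. Sowahb, Csgalnact2 (a chondroitin sulfate synthase), the alpha tubulin Tuba8 and the zinc finger gene Zfp740 followed, with the lowest FC pool at 22.6, 15.2, 10 and 9.82 CPM in that order and the highest shock-only pool at 2.61, 0.828, 1.37 and 0.87 CPM. Nfic differed in kind, since it was expressed in all pools. This nuclear factor I gene had 97.1, 74.4 and 83.3 CPM in FC pools and 19.8 and 26.8 CPM in shock-only pools (1.80 ± 0.46).

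**Figure D1:**
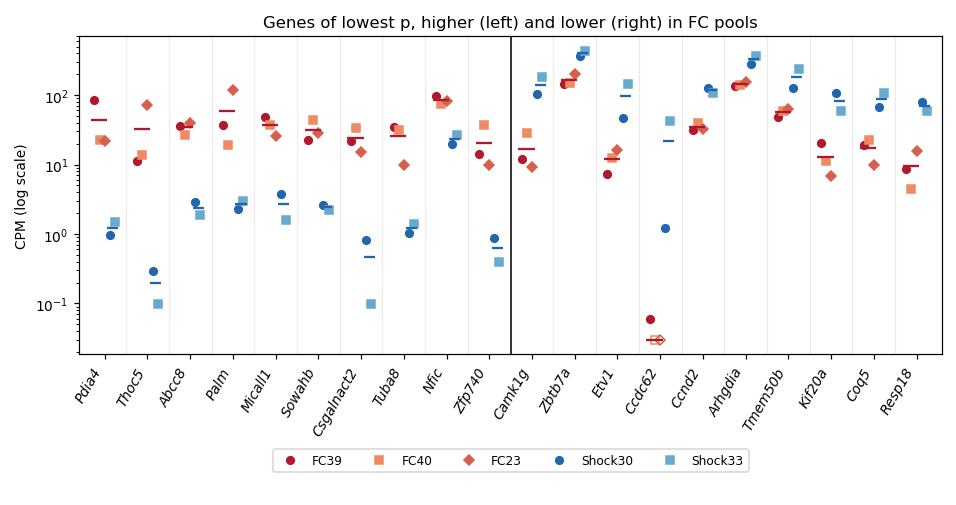
Levels in CPM (log scale) of the 10 genes of lowest p with a higher and the 10 with a lower estimate in FC pools; each point is 1 pool, short lines are the means of the 3 FC and 2 shock-only pools, and open symbols at the bottom are pools with no count. Camk1g has 9.1 to 28.2 CPM in FC pools and 103 and 180 CPM in shock-only pools, and Pdia4 has 22.1 to 85.8 CPM against 0.952 and 1.47 CPM.

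Nans and Ptpn23, which edgeR's exact test called together with Camk1g, Etv1, Ccdc62, Pdia4 and Thoc5, fall outside the rule that chose the leading genes and were picked after their values were seen. Nans, which makes sialic acid, had 8.34, 8.41 and 21.9 CPM in FC pools and no count in both shock-only pools. Against a floor of 3 counts over the shock-only pools this is at least 153-fold higher. Ptpn23, a phosphatase-like protein of endosomes, had 13.8 to 23.4 CPM in FC pools, 20.2 CPM in Shock30 and 922 CPM in Shock33, so that its calls, by the exact test and by the quasi-likelihood test without Shock30 (adjusted p = 0.0066), rested on a single pool.

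Activity-regulated genes were at similar or lower levels in FC pools. Arc, the gene whose promoter drives the reporter (mm9, chromosome 15, 74499513 to 74503000, minus strand), had 643, 329 and 424 CPM in FC pools and 883 and 459 CPM in shock-only pools. The groups overlapped (log2 fold change -0.61 ± 0.36, unadjusted p = 0.126), and all pools were above the 81.8 to 173 CPM of bulk tissue. Of 7 AP-1 factors tested, which bind DNA as Fos and Jun dimers, 6 had a negative estimate, with a median of -0.96 against 0.00 over all genes (quartiles of all genes -0.50 and 0.64). Their summed level was 160, 130 and 303 CPM in FC pools and 377 and 421 CPM in shock-only pools. Fosb, whose stable splice form accumulates in activated neurons, had 56.5, 5.26 and 36.4 CPM against 157 and 60.2 CPM (-1.82 ± 0.84) and was the only AP-1 factor whose groups did not overlap. Fos itself, with 14.2, 0.225 and 36.4 CPM against 40.3 and 0.196 CPM, varied as much within groups as between them. Fosl1 rested on Shock33 at 92.5 CPM, with at most 2.4 CPM in any other pool, and the AP-1 median moved to -0.09 without that pool.

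The other early factors behaved less evenly. Of 13 tested members of the Egr, Nr4a, Klf and related families, 9 had a negative and 4 a positive estimate (median -0.41), and the median became 0.13 without Shock30. Nr4a2, an orphan nuclear receptor, had 162, 15.8 and 57.4 CPM in FC pools and 256 and 82.2 CPM in shock-only pools. Egr1 (391, 194 and 271 CPM against 353 and 243 CPM) and Egr3 (286, 190 and 210 CPM against 148 and 199 CPM) overlapped between groups. Npas4, a neuronal factor induced by calcium, was 225 CPM in Shock30 and 13.5 CPM in Shock33, and the FC pools lay between these at 37, 45.8 and 133 CPM.

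Most effectors downstream of activity had a negative estimate. The median level of the list was 138 CPM, and of all genes with 100 to 300 CPM 42.1% had a positive estimate. Of 24 tested, 17 had a negative estimate (median -0.33), 3 were lower in FC pools at an unadjusted p under 0.05 and 0 higher. Every FC pool was below in 2 of them (8.33%), near the 8.21% of all genes. Rgs2, a GTPase activator that shortens G protein signals, had 223, 167 and 204 CPM in FC pools and 306 and 408 CPM in shock-only pools (-0.92 ± 0.27). Vgf, the precursor of secreted neuropeptides, had 104, 70.9 and 133 CPM against 138 and 271 CPM (-1.06 ± 0.41). In both genes the groups did not overlap. Bdnf, the neurotrophin that binds TrkB, had 127, 96.5 and 89 CPM against 125 and 250 CPM (-0.92 ± 0.38), so that FC39 was level with Shock30. Rgs4, also a regulator of G protein signals, ran the other way at 660, 1102 and 905 CPM against 715 and 372 CPM (0.64 ± 0.35). The summed level of the 24 effectors was 3914 to 4344 CPM in FC pools and 4534 and 4874 CPM in shock-only pools, and 1995 to 2327 CPM in bulk tissue. The median of the effector list stayed between -0.40 and -0.08 when each pool was left out in turn.

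MAP kinase phosphatases and Sprouty-related inhibitors, which end ERK signalling, were not separated by condition. Of 13 tested, 6 had a positive and 7 a negative estimate, and only Dusp16, at a level of at most 6.85 CPM, had groups that did not overlap. Spred2 was 2276 CPM in FC23 and 76.1 to 219 CPM in the other 4 pools, so the summed level of the list in FC23 (3138 CPM against 692 to 847 CPM elsewhere) came mostly from that gene.

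The study also deposited lists of activity-regulated and marker genes with these libraries. The lists were chosen by the study on these samples, so their direction is not independent evidence. Of 63 visual stimulus genes, 50 had a negative estimate (median -0.33) and 13 a positive one. Of 87 genes regulated by activity in culture, 59 were negative (median -0.27), and of 116 genes of the Fos ensemble 78 were (median -0.23). The 45 excitatory markers divided 23 to 22 with a median of 0.01. The estimates moved with expression level over all genes as well, since the median was -0.09 over all 1536 genes with 100 to 300 CPM and 0.36 over the 3671 genes with under 10 CPM.

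Promoters of the activity lists are shown for Rgs2 and Fosb, whose groups did not overlap, with the letters TGACG, the core of the cyclic AMP response element, in capitals on either strand. Sequences are RefSeq promoters on GRCm38.p6, from 250 bases before to 50 after the gene start, written 5′ to 3′ along the gene.
Rgs2 (chr1:144004100-144004399, minus strand): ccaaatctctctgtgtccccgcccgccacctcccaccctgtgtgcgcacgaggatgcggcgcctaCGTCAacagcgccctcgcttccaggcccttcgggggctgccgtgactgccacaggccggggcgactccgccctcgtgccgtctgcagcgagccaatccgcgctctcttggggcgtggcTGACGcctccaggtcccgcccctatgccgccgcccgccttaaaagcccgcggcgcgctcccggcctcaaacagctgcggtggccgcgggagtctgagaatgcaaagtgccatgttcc
Fosb (chr7:19309996-19310295, minus strand): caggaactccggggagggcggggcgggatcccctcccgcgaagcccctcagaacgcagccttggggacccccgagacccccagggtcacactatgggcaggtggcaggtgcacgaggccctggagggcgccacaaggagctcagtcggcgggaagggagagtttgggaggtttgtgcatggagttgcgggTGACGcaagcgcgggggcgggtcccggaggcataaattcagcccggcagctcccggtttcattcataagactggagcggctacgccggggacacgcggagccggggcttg
The motif was found on both strands of the Rgs2 window and on 1 of Fosb. It is present in 20 of the 32 genes of the activity lists that have a promoter in the table (62.5%), against 20.8% of all 32851 promoters and 35.6% of the 8738 tested genes with one. The 3110 tested genes with the motif had a median log2 fold change of 0.02. The full palindrome TGACGTCA, which contains the core, was in 1.79% of all promoters, and its 324 tested genes had a median of -0.01. Both medians are near that of all genes, and a match of letters is not a binding site.

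**Figure D2:**
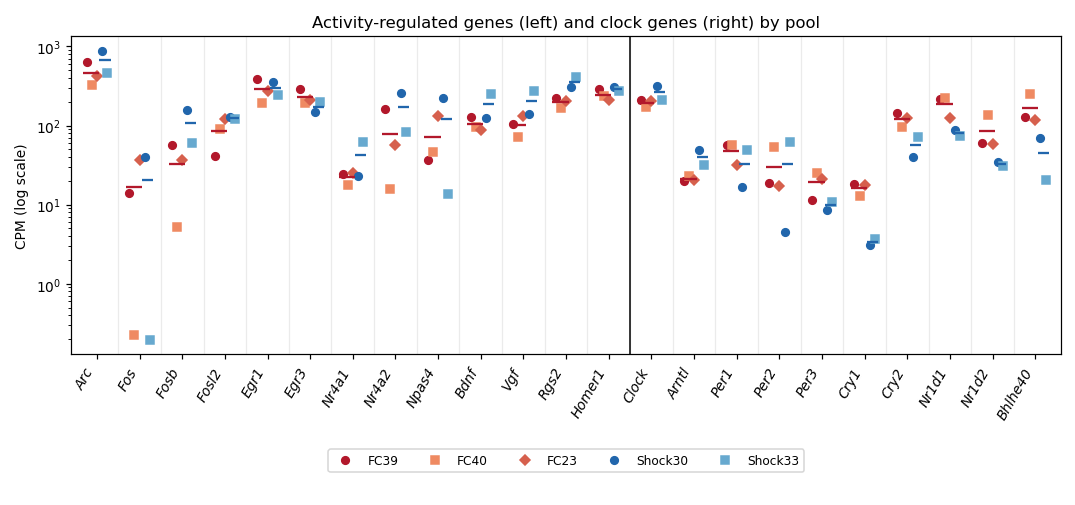
Levels in CPM (log scale) of activity-regulated genes and of clock genes in each pool, with the mean of the 3 FC pools and of the 2 shock-only pools as short lines. Arc overlaps between groups at 329 to 643 CPM and 459 and 883 CPM, whereas Cry1 has 12.9 to 18 CPM in FC pools and 3.06 and 3.72 CPM in shock-only pools.

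Of the 59 gene lists described here, the circadian clock had the largest share of members above in every FC pool. The clock is a feedback loop in which Clock and Arntl activate E-box genes, among them the repressors Per, Cry, Nr1d and Bhlhe. Of 22 clock genes tested, 9 (40.9%) had every FC pool above both shock-only pools, against 13.1% of all genes, and 2 (9.09%) had every FC pool below, against 8.21%. At an unadjusted p under 0.05, 5 were higher in FC pools and 0 lower. The median of the list was 0.37, and it stayed between 0.23 and 0.82 when any pool was left out. The summed level was 1834, 2033 and 1483 CPM in FC pools and 1477 and 1222 CPM in shock-only pools. In this sum FC23 and Shock30 were nearly level. Per the study's methods, the behavior of the mice used for RNA sequencing took place in the morning.

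Of the 9 members above in every FC pool, 7 were repressors or output genes of the clock. Nr1d1, a nuclear receptor that represses Arntl, had 218, 221 and 123 CPM in FC pools and 87.5 and 74.7 CPM in shock-only pools (1.13 ± 0.38). Its paralog Nr1d2 had 59.9, 137 and 58.8 CPM against 34.8 and 30.9 CPM (1.31 ± 0.54). Both were higher in each FC pool. The cryptochromes, repressors of Clock and Arntl, followed with Cry1 at 18, 12.9 and 17.5 CPM against 3.06 and 3.72 CPM (2.18 ± 0.98) and Cry2 at 144, 94.9 and 126 CPM against 40.1 and 71.7 CPM (1.05 ± 0.42). Bhlhe40, which competes for E-boxes, had 128, 251 and 117 CPM against 68.9 and 20.5 CPM (1.81 ± 0.61). Bhlhe41 was low in all pools, with its highest level of 10.6 CPM in FC40 and 0.0414 CPM or less in shock-only pools. Per3 was also separated, at 11.5 to 25.3 CPM against 8.61 and 10.9 CPM.

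Of the 4 activators, 3 had a negative and 1 a positive estimate, and Arntl2 was at 4.6 CPM or less in every pool. Arntl had 19.9, 23.1 and 20.5 CPM in FC pools and 49.4 and 31.4 CPM in shock-only pools, and Clock had 209, 170 and 206 CPM against 318 and 212 CPM (-0.51 ± 0.29). In Clock the highest FC pool and the lower shock-only pool were nearly level (209 and 212 CPM). Npas2, a paralog of Clock, was above in every FC pool at 82.4, 78.8 and 195 CPM against 73.9 and 57.2 CPM. Taking the list apart after its values had been seen, 7 of 12 repressors and output genes were above in every FC pool and 0 below, with a median of 0.99, and of 4 activators 1 was above and 2 below. Not every repressor took part, since Per1 (31.8 to 56.1 CPM against 16.9 and 48.9 CPM) and Per2 (17.1 to 53.5 CPM against 4.47 and 61.1 CPM) overlapped, as did the output genes Dbp, Tef and Hlf. In bulk tissue Nr1d1 was 169 CPM in the FC library and 180 and 199 CPM in the shock-only libraries.

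The E-box CACGTG, a palindrome that reads the same on both strands, was in the promoter windows of 4 of the 18 clock genes found in the table (22.2%), against 7.15% of all promoters and 11.8% of tested genes. Windows are shown for Cry1 and Bhlhe41, which were above in every FC pool, with the E-box in capitals.
Cry1 (chr10:85185005-85185304, minus strand): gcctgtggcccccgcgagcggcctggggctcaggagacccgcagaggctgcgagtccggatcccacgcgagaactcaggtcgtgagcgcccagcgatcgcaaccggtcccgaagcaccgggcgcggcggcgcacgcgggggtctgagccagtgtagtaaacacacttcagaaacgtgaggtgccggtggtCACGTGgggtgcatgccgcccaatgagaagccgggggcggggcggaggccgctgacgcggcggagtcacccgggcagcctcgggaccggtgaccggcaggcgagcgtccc
Bhlhe41 (chr6:145865371-145865670, minus strand): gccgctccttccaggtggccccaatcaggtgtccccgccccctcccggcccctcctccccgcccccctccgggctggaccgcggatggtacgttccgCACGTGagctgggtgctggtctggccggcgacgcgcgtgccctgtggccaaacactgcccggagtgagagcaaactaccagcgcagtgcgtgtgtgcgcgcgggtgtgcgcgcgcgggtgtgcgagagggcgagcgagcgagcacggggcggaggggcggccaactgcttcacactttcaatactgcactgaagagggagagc
The other windows with an E-box were those of Per1 and Tef, whose groups overlapped. Over all 1034 tested genes with an E-box the median was -0.02, and every FC pool was above in 12.1% and below in 8.61%, near the shares of all genes.

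Genes of the stress hormone response were divided. Of 14 tested targets and receptors of glucocorticoids and CRH, 10 had a positive estimate (median 0.18), 2 were above in every FC pool and 2 below. The median was 1.00 without Shock30 and 0.38 without FC39. Tsc22d3, a glucocorticoid-induced leucine zipper gene, had 30.3, 13.7 and 9.55 CPM in FC pools and 3.6 and 2.74 CPM in shock-only pools (2.41 ± 1.04). Nr3c2, the mineralocorticoid receptor, had 21.9, 26.7 and 22.7 CPM against 43.1 and 49.2 CPM (-1.02 ± 0.54). Sgk1 and Nr3c1, a hormone-induced kinase and the glucocorticoid receptor, overlapped between groups. Of 12 interferon-stimulated genes, 7 were positive and 5 negative, and Irf1 was 37.2 CPM in Shock30 and under 1 CPM in the other pools.

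Protein folding genes were shifted slightly toward shock-only pools in the cytosol. Of 77 heat shock proteins and chaperonins, 50 had a negative estimate (median -0.26), 14 (18.2%) lay below in every FC pool against 8.21% of all genes, and 9 (11.7%) lay above against 13.1%. The summed level was 10701 to 11633 CPM in FC pools and 11951 and 12999 CPM in shock-only pools. Dnajb4, a cochaperone of Hsp70, had 155, 111 and 117 CPM against 311 and 247 CPM (-1.20 ± 0.30), and Hspa2 had 50.6, 46.2 and 67.7 CPM against 104 and 121 CPM (-1.10 ± 0.39). Dnajc2, a cochaperone at the ribosome, had 36.9 to 54.6 CPM against 101 and 94.9 CPM. The most abundant members did not separate, with Hspa8 at 1230 to 1608 CPM against 1804 and 1414 CPM and Hsp90ab1 at 1188 to 1448 CPM against 1147 and 1552 CPM. In the endoplasmic reticulum 17 of 29 genes were positive (median 0.08) and 7 (24.1%) were above in every FC pool. Besides Pdia4 these included Edem1, which sorts misfolded proteins for degradation, at 29.9, 19.2 and 40.2 CPM against 1.32 and 7.04 CPM (2.78 ± 1.00).

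Genes of the ribosome and the respiratory chain were lower in FC pools as lists, and so were other genes with short transcripts. Of 82 cytosolic ribosomal protein genes, 66 had a negative estimate (median -0.38), 20 (24.4%) lay below in every FC pool against 8.21% of all genes, 9 were lower at an unadjusted p under 0.05 and 0 were higher. The sum was 5628, 4459 and 5076 CPM in FC pools and 7015 and 6433 CPM in shock-only pools. Fau, a fusion of a ubiquitin-like protein and ribosomal protein S30, had 73, 76.9 and 57.3 CPM against 239 and 113 CPM (-1.43 ± 0.41). Rpl37a had 45, 46.2 and 45.7 CPM against 95.1 and 103 CPM (-1.18 ± 0.38), and Rpl41 had 259, 255 and 235 CPM against 374 and 349 CPM (-0.60 ± 0.24). In the latter pair the pools of a group lay close together. Rpl26 had 28.7, 12.9 and 16.4 CPM against 72 and 53.8 CPM. Of 80 oxidative phosphorylation subunits, 56 were negative (median -0.29), 13 (16.2%) lay below in every FC pool, and 8 were lower and 0 higher at an unadjusted p under 0.05. Cox7b, a subunit of cytochrome c oxidase, had 78.2, 83.6 and 71.8 CPM against 203 and 148 CPM (-1.24 ± 0.33), and Uqcr11, a subunit of complex III, had 34.7, 26 and 18.3 CPM against 72 and 81.1 CPM (-1.61 ± 0.49). The summed level was 6298 to 6356 CPM in FC pools, 8278 CPM in Shock30 and 6453 CPM in Shock33, and without Shock30 the median was -0.05.

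Transcript length moved with these lists. The median of the longest annotated transcript was 935 bases for cytosolic ribosomal proteins and 992 bases for oxidative phosphorylation, against 3296 bases over all tested genes. Among genes with a mean of at least 30 CPM, the median log2 fold change was -0.39 for the 195 with transcripts under 1000 bases and -0.01 for the 1703 with 5000 bases or more. Of the former, 24.1% lay below in every FC pool and 3.59% above. The 121 short genes outside the ribosomal and oxidative phosphorylation lists had a median of -0.38, with 24% below and 3.31% above, close to the 41 ribosomal genes of this length and level (median -0.44, 26.8% below). The 30 ribosomal genes with longer transcripts had a median of -0.28, against -0.06 for the 5003 genes of that length and level in neither list. By pool, the short genes stood 0.38 above the mean of the 5 pools (log2) in Shock30, 0.08 above it in Shock33 and 0.10 to 0.29 below it in the FC pools. Levels by length were looked at after the lists had been seen, and the part of transcript length in these lists was not tested.

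**Figure D3:**
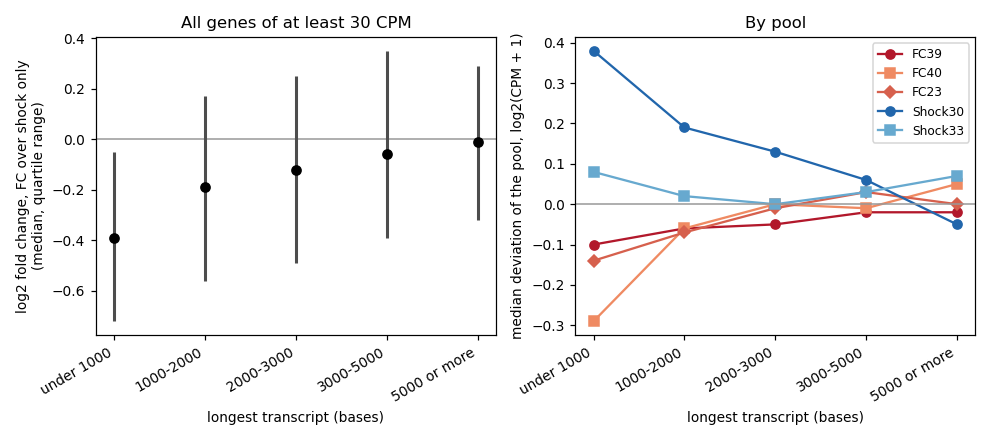
Left, median and quartile range of the log2 fold change (FC over shock-only pools) of genes with a mean of at least 30 CPM, by the longest transcript of the gene in bases; right, the median deviation of each pool from the mean of the 5 pools in log2(CPM + 1) for the same genes. The fold change runs from -0.39 for transcripts under 1000 bases to -0.01 at 5000 bases or more, and Shock30 departs furthest, by 0.38 for the shortest.

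Most other housekeeping lists stayed near the median of all genes. The 76 mitochondrial ribosomal proteins, also short at a median of 1300 bases, divided 37 positive to 39 negative (median -0.07). Medians were close to 0.00 for glycolysis (26 genes, -0.11), translation factors (68 genes, -0.09) and splicing and RNA-binding proteins (80 genes, -0.10). So were those of chromatin modifiers (102 genes, -0.05) and the autophagy and lysosome list (55 genes, -0.05). The proteasome had a lower median (44 genes, -0.21), with 7 members (15.9%) above in every FC pool and 4 (9.09%) below. For glycolysis 7.69% of genes were above in every FC pool and 3.85% below, and for translation factors 16.2% and 7.35%. The shares were 7.5% each for splicing and RNA-binding proteins, 11.8% and 7.84% for chromatin modifiers and 9.09% each for autophagy and lysosome. All genes had 13.1% above and 8.21% below. Single members named next were chosen by lowest p or highest CPM. Eif4h, a helper of the initiation helicase, had 140, 109 and 142 CPM in FC pools and 210 and 254 CPM in shock-only pools (-0.90 ± 0.29). Hnrnpa1 had 109, 116 and 99.6 CPM against 245 and 168 CPM (-1.01 ± 0.32), and Hnrnpa2b1 had 388 to 500 CPM against 677 and 624 CPM (-0.56 ± 0.22). Both are splicing regulators of 1 family, were picked by lowest p in their list and were lower in each FC pool. Qk, an RNA-binding protein abundant in glia, had 35, 14.7 and 53.9 CPM against 6.79 and 7.43 CPM, with 407 to 499 CPM in bulk tissue. Among chromatin genes, the histone methyltransferase Mll1 had 524, 590 and 426 CPM against 311 and 320 CPM (0.63 ± 0.25), and the acetyl-lysine reader Brd2 had 87.4, 123 and 134 CPM against 62.8 and 20.2 CPM (1.40 ± 0.55). Of the proteasome, the activator subunit Psme1 was lower (9.96 to 18.4 CPM against 35 and 55 CPM) and the ATPase Psmc3 higher (83.2 to 204 CPM against 38.1 and 58.7 CPM). Of the vacuolar proton pump, Atp6v0a1 had 438, 469 and 372 CPM against 265 and 227 CPM (0.72 ± 0.25), while Atp6v1h had 49.1 to 63.3 CPM against 83.5 and 134 CPM (-1.02 ± 0.40), so that subunits of 1 complex had opposite signs. Cholesterol genes did likewise, with Lss, the lanosterol synthase, at 9.53 to 28 CPM against 0 and 0.783 CPM, and Hmgcs1 at 112, 61.1 and 136 CPM against 173 and 216 CPM (-0.99 ± 0.39). Of 36 aminoacyl-tRNA synthetases 24 were positive (median 0.26), among them Yars at 58.5, 71.5 and 27.8 CPM against 14.6 and 12.5 CPM (1.88 ± 0.64). Lars2 made up most of that list's sum, at 6830 to 24523 CPM in FC pools and 17406 and 18602 CPM in shock-only pools.

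Cadherins and protocadherins had 31 of 80 tested members (38.8%) above in every FC pool, but these are few independent values. The 22 Pcdhg genes share constant exons, and their counts were nearly the same, with a median over the genes of 438, 528 and 529 CPM in FC pools and 396 and 209 CPM in shock-only pools. All 22 were above in every FC pool, with log2 fold changes of 0.47 to 0.71, so they amount to about 1 measurement of the cluster. Pcdhgc5, the most abundant of them, had 734, 680 and 791 CPM against 559 and 454 CPM (0.47 ± 0.22). The 14 Pcdha genes, which share exons likewise, overlapped between groups (medians of 336, 348 and 180 CPM against 257 and 313 CPM). An entry named Pcdha4-g had 178, 240 and 273 CPM against 104 and 89.1 CPM (1.19 ± 0.33). Of the 20 single-exon Pcdhb genes, which share no such exons, 15 had a positive estimate, 5 were above in every FC pool and 0 below, with a median level of 10.9, 12.4 and 12.7 CPM in FC pools. The 23 cadherins and protocadherins outside these clusters had a median of 0.21, with 3 above and 2 below.

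Other adhesion and guidance genes had mixed signs. Of 35 neurexins, neuroligins, LRRTMs and related genes, 18 were positive and 17 negative. Nlgn3, a postsynaptic neuroligin, had 176, 178 and 216 CPM in FC pools and 312 and 298 CPM in shock-only pools (-0.75 ± 0.26), and Flrt3, a ligand of latrophilins, had 123, 197 and 97.4 CPM against 62.8 and 64.2 CPM (1.07 ± 0.42). Nrxn3 overlapped. Of 60 axon guidance genes 11 (18.3%) were above in every FC pool and 2 (3.33%) below, with a median of -0.01. Sema5b, a semaphorin, had 26.3, 111 and 52.5 CPM against 14.9 and 3.42 CPM (2.71 ± 0.91), and the semaphorin receptor Plxnc1 had 89.5, 50.4 and 91.7 CPM against 192 and 116 CPM (-1.07 ± 0.41).

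Ion channel families held their summed level in most cases. The 41 voltage-gated potassium and HCN channels divided 23 positive to 18 negative (median 0.06), with 4 above and 4 below (9.76% each). Kcnab2, a cytoplasmic beta subunit, had 109, 83.1 and 106 CPM in FC pools and 40.5 and 45.5 CPM in shock-only pools (1.14 ± 0.40). Kcnh7, an ERG channel, had 264, 323 and 276 CPM against 159 and 178 CPM (0.71 ± 0.27), and Kcnc2, a fast Kv3 channel, had 62.4, 81.9 and 65.1 CPM against 121 and 124 CPM (-0.87 ± 0.35). Of 10 inward rectifiers 1 separated, Kcnj2, which sets the resting potential, at 80.9, 133 and 123 CPM against 227 and 234 CPM (-1.10 ± 0.33). The 10 sodium channel genes had a median of 0.40 and a sum of 1848, 2308 and 1894 CPM against 1650 and 1478 CPM, with every FC pool above. Scn1a had 210, 259 and 269 CPM against 186 and 179 CPM (0.37 ± 0.28), and the axonal channel Scn8a overlapped at 674 to 1138 CPM against 588 and 719 CPM. Without Shock33 the median of the sodium channels was 0.06. The 16 calcium channel subunits divided 8 to 8, and the 17 leak, SK and BK channels 6 to 11, with 1 gene on each side beyond the other group.

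Summed levels of glutamate receptor genes overlapped between groups, and most AMPA receptor genes had a negative estimate. Of 21 AMPA receptor subunits and partners, 15 were negative (median -0.32), 3 were below in every FC pool and 1 above. The median was -0.06 without Shock33, -0.15 without FC23 and -0.19 without FC40. Cnih2, a cornichon that slows AMPA receptor gating, had 28.3, 25.1 and 22.8 CPM in FC pools and 76.4 and 104 CPM in shock-only pools (-1.90 ± 0.45). Gsg1l, also an auxiliary subunit, had 225, 249 and 294 CPM against 362 and 329 CPM (-0.50 ± 0.26), whereas the pore subunit Gria3 had 808, 1140 and 1135 CPM against 673 and 686 CPM (0.53 ± 0.24). The pore subunit Gria2 overlapped at 1006 to 1415 CPM against 1217 and 1386 CPM. Of 15 NMDA and kainate receptor genes 3 were above in every FC pool and 0 below, and Grin2b, at 972 to 1180 CPM against 973 and 1068 CPM, had a log2 fold change of -0.02, with a 95% interval of -0.48 to 0.44 and a sign that turned under some alternatives. The 7 metabotropic receptors had a median of 0.01.

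GABA receptor genes were level as a list, with sums of 4172 to 4452 CPM in FC pools and 4180 and 4187 CPM in shock-only pools. Of 17 tested 8 were positive and 9 negative. Gabrd, the delta subunit of extrasynaptic GABA-A receptors, had 33.1, 75.2 and 37.3 CPM in FC pools and 17 and 15.5 CPM in shock-only pools (1.52 ± 0.64), and Gabrg1 had 6.34, 0.901 and 0.996 CPM against 24.1 and 23.9 CPM (-3.21 ± 1.15). The abundant subunit Gabrb2 overlapped. Of 10 serotonin receptors, Htr5a had 34.1, 65.4 and 41.2 CPM against 17.7 and 8.61 CPM (1.76 ± 0.67), and the inhibitory receptor Htr1a had 8.99, 3.98 and 7.15 CPM against 40.8 and 15 CPM (-2.13 ± 0.86). The signs were opposite within the family. Adra1d, an alpha-1 adrenergic receptor, had 167 CPM in FC40, 25.3 and 20.8 CPM in the other FC pools and 8.74 and 11.3 CPM in shock-only pools. Of 9 cholinergic receptors and 12 endocannabinoid genes, 1 each was above in every FC pool and 0 below.

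Presynaptic machinery was close to balanced, with 37 of 66 vesicle fusion genes positive (median 0.08), 5 above and 6 below. Rims2, an active zone scaffold, had 83.1, 102 and 73.3 CPM in FC pools and 35.1 and 33.5 CPM in shock-only pools (1.26 ± 0.43). Syt7, a slow calcium sensor, had 339, 347 and 354 CPM against 480 and 435 CPM (-0.47 ± 0.22). In Syt7 the FC pools were nearly level. Bsn, the scaffold bassoon, was above in each FC pool at 2280, 2266 and 2203 CPM against 1710 and 1790 CPM (0.29 ± 0.17).

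Calcium and cyclic nucleotide signalling genes included Camk1g and Pcp4. Pcp4, a calmodulin regulator, had 17.8, 0.0751 and 2.72 CPM in FC pools and 185 and 86.7 CPM in shock-only pools (-4.40 ± 1.36). Camk2a, an abundant kinase gene of the list, was narrowly above in every FC pool at 3255 to 4316 CPM against 3238 and 3010 CPM. Its margin over Shock30 is smaller than the difference between the TMM factors of FC and shock-only pools. The 26 genes had a median of -0.05, with 5 (19.2%) below in every FC pool and 2 (7.69%) above, and with 3 lower and 0 higher at an unadjusted p under 0.05. Of 59 cyclic nucleotide genes 40 were negative (median -0.12). Adcy8, a calcium-activated adenylyl cyclase, had 22, 7.81 and 45.2 CPM against 2.32 and 1.76 CPM (3.54 ± 1.10), and Rapgef1, an exchange factor of Rap, had 54.2, 65.2 and 55.3 CPM against 28.2 and 15.8 CPM (1.33 ± 0.54). The 17 regulators of G protein signalling had a median of 0.52 (0.24 without Shock33 and 0.80 without Shock30) with 12 positive estimates. Every FC pool was above in 2 and below in 2 of them (11.8% each), and the 2 at an unadjusted p under 0.05 (Rgs2 and Rgs9) were lower in FC pools.

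Secreted signals and their receptors gave single genes on either side. Adcyap1, the precursor of the peptide PACAP, had 2.94, 0.676 and 6.52 CPM in FC pools and 70.1 and 19.2 CPM in shock-only pools (-3.79 ± 1.07). Of 22 neuropeptides and granins 14 were negative, and the abundant Cck (812 to 1252 CPM against 1501 and 949 CPM) and Chgb (1188 to 1644 CPM against 1324 and 1779 CPM) overlapped. Of 22 genes of neurotrophin and activin signalling 5 (22.7%) were above in every FC pool and 0 below. Sorcs2, a receptor for proneurotrophins, had 41.9, 35.4 and 25.9 CPM against 6.96 and 2.93 CPM (2.71 ± 0.81), and Smad2, a mediator of activin, had 24.8, 34.3 and 50.2 CPM against 8.57 and 12.9 CPM (1.70 ± 0.70). The TrkB receptor gene Ntrk2 was 453 to 566 CPM against 550 and 690 CPM. Of 18 nuclear long non-coding RNAs, Peg13 had 245, 161 and 251 CPM against 117 and 80.5 CPM (1.08 ± 0.35), while Malat1 was 2756 to 4337 CPM in FC pools, 1763 CPM in Shock30 and 5670 CPM in Shock33. The shock-only pools thus enclosed the FC pools for Malat1.

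Among layer markers, L5 genes were most often lower in FC pools. Of 15 L5 markers 5 (33.3%) lay below in every FC pool, against 8.21% of all genes, and 0 above. Among these were Etv1 and Pcp4, described above, Parm1 (0.587, 5.63 and 0.0453 CPM in FC pools, 50 and 12 CPM in shock-only pools) and Sulf2. Fezf2, a factor of subcerebral L5 neurons, had 23.5 CPM in Shock33 and no count in any other pool. Other L5 genes overlapped, such as Bcl11b (13, 0.3 and 6.16 CPM against 0.29 and 3.33 CPM) and Ldb2 (71.1 to 98.4 CPM against 59.6 and 82.6 CPM). The summed level of the list was 444, 306 and 552 CPM in FC pools and 730 and 619 CPM in shock-only pools, and without Shock33 its median was 0.07. Of 14 L2/3 markers 2 were above in every FC pool and 0 below. Cux1, a homeobox factor of upper layers, had 171, 283 and 150 CPM against 101 and 69.1 CPM (1.18 ± 0.40), and Cux2 had 178 to 267 CPM against 175 and 87.4 CPM. The 7 L6 markers and 5 L4 markers tested overlapped, with Tbr1 at 156 to 257 CPM against 160 and 237 CPM. A pool holds 23 to 40 cells, and a smaller share of cells of a layer cannot be told apart from less RNA of these genes per cell.

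**Figure D4:**
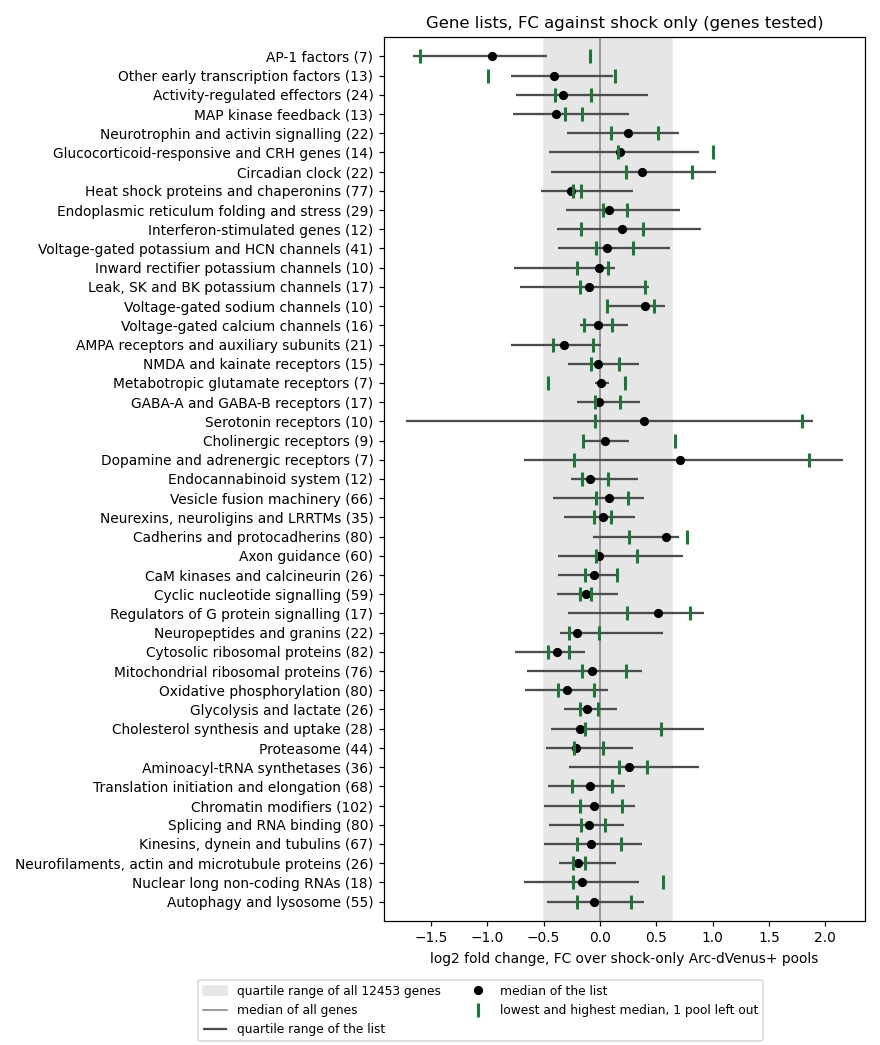
Median (point) and quartile range (line) of the log2 fold change, FC over shock-only Arc-dVenus+ pools, for each gene list with the number of genes tested in parentheses; green ticks are the lowest and highest median when 1 of the 5 pools is left out, and the grey band is the quartile range of all 12453 genes (-0.50 to 0.64). AP-1 factors (-0.96), other early factors (-0.41), MAP kinase feedback (-0.39) and cytosolic ribosomal proteins (-0.38) lie to the left. To the right lie dopamine and adrenergic receptors (0.71), cadherins (0.59) and regulators of G protein signalling (0.52). Sodium channels (0.40), serotonin receptors (0.39) and clock genes (0.37) follow. The median of the dopamine and adrenergic receptors was -0.23 without FC23, and that of the serotonin receptors was -0.04 without FC39. The cadherin list holds 22 Pcdhg genes with nearly the same counts.

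**Figure D5:**
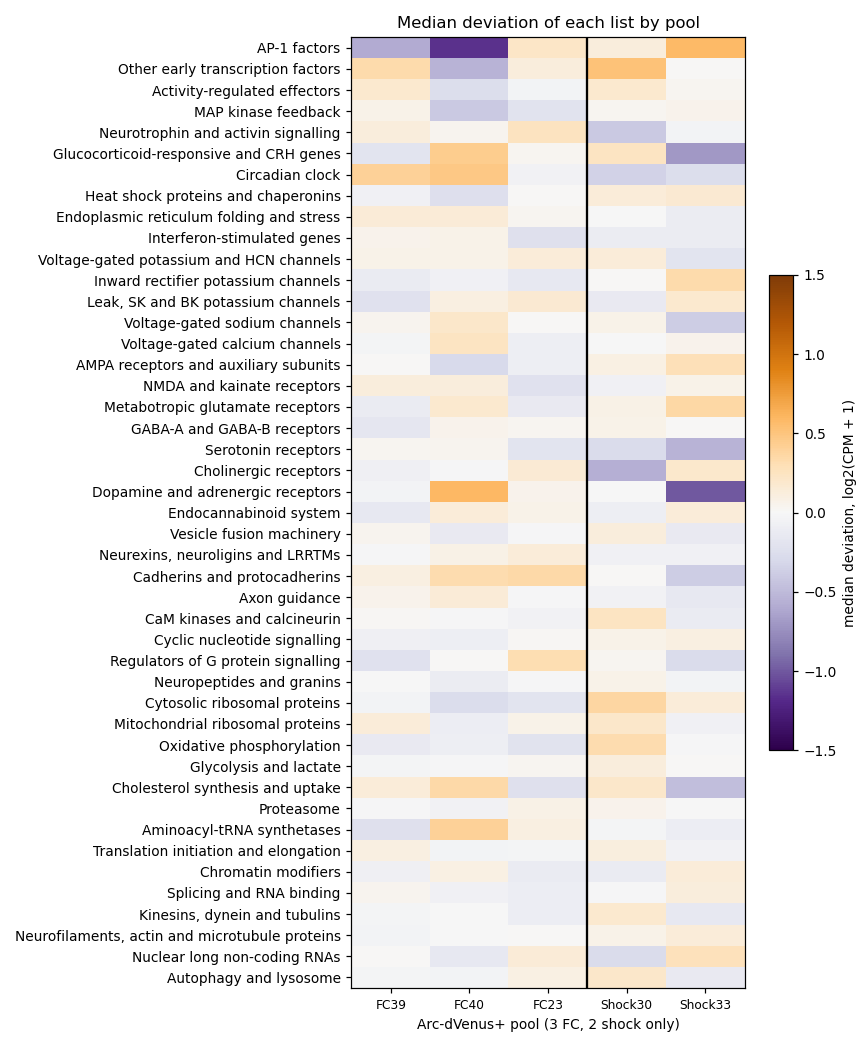
Median over the genes of each list of the deviation of a pool from the mean of the 5 pools, in log2(CPM + 1), with FC pools left of the black line and shock-only pools right of it. The clock list stands at 0.40 in FC39, 0.48 in FC40, -0.05 in FC23, -0.34 in Shock30 and -0.25 in Shock33, and the AP-1 list at -1.16 in FC40 and 0.58 in Shock33.

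To ask whether the effect of condition differed between sorted cells and bulk tissue, the interaction was tested in a fit of 4 groups with the 3 bulk-tissue libraries. No gene (0 of 12453, 0%) had an adjusted p under 0.05, with 181 genes positive and 121 negative at an unadjusted p under 0.05 by edgeR's quasi-likelihood test. The FC bulk arm is a single library, so the fit took its spread from the other groups. The 5 genes of lowest p were Kit, Gm20605, Pisd-ps1, Pisd-ps3 and Pcx. Kit, a receptor tyrosine kinase, had 6.38 to 9.91 CPM in FC pools, 0.207 and 0.0978 CPM in shock-only pools and 47.1 to 56.7 CPM in every bulk-tissue library. Pcx, the pyruvate carboxylase, had 7.28 to 14.8 CPM in FC pools and 1 count over both shock-only pools, with 8.93 to 14.5 CPM in bulk tissue. Pisd-ps1 and Pisd-ps3 are pseudogenes with nearly the same counts, so their values are uncertain and not independent, and differed between the FC bulk library (41.1 CPM) and the others (102 and 115 CPM) as well as between pools.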

How the data were processed

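RNA of Arc-dVenus+ pools and of bulk TeA tissue was amplified and sequenced. The authors mapped reads with RUM 1.11 to mm9 and deposited a read count and a CPM (a count scaled to the library total) per gene and library, and the deposited CPM equals the count over the library total within 0.0005. The deposited fold change and PValue columns hold the authors' comparison of Arc-dVenus+ cells with bulk tissue and were not used.

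Counts of the 5 pools were fitted with edgeR 4.0.16 in R 4.3.3 (TMM scaling, quasi-likelihood F test, Benjamini-Hochberg adjustment over all tested genes). A gene was called at an adjusted p under 0.05 with a change of more than 2-fold. Intervals are 95% intervals of the fit. Limma 3.58.1 (voom), DESeq2 1.42.0 and edgeR's exact test were alternatives, with other scalings and filters and with each pool left out in turn. The method was tested on simulated data. The outcome is not reported here, and the power at the spread of these pools is not given.

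Gene lists and members were chosen with earlier results of these data known. The text names the 10 genes of lowest p in each direction (higher group at a mean of 20 CPM or more), from each list up to 3 of lowest p and 3 of highest CPM, Arc, and the 5 genes of lowest p in the interaction. Other genes named were chosen after their values were seen. Per the study's methods, cells were isolated per animal, from 3 FC and 2 shock-only mice. Nothing in the labels pairs samples between groups. Each pool was amplified once, so the spread between pools holds technical variation too. Gene positions are on mm9 (GENCODE M1), and promoter sequences are from RefSeq on GRCm38.p6. Per the study's methods, the authors kept reads that aligned uniquely and 1 transcript variant per gene, and how reads on exons shared by overlapping genes were assigned is not given in the sources used here. Figures were drawn with matplotlib 3.10.9. Some members of the lists are counted but not reported by name here.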

Additional observations from a re-analysis of the deposited data

How the results depend on the processing

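The count of 0 called genes held under 12 of the 15 alternatives to the quasi-likelihood fit. DESeq2 called 147 genes (98 higher and 49 lower in FC pools), and edgeR's exact test called 7 (3 higher and 4 lower). The cause was not tested. With a pool left out in turn, the count ranged from 0 to 1 in all, and from 0 to 1 among lower genes, the 1 being Ptpn23 without Shock30. Without Shock30 the median log2 fold change of all genes moved from 0.00 to 0.17, and without Shock33 to 0.14. Of 102 genes recomputed under the alternatives, which include every gene printed with a fold change, 101 kept their sign. Many of these genes were named for a low p in these same pools. That choice favors a kept sign, so the count is not evidence of a difference. The exception was Grin2b, at -0.02, which was 0.05 with library totals alone, 0.02 with a mean of at least 20 CPM, 0.01 with voom and between -0.12 and 0.07 with a pool left out in turn (0.07 without FC39 and 0.04 without Shock33). The median changed sign in at least 1 of 7 alternatives for 37 of 63 gene and marker lists. No gene was called in the interaction under any alternative. Cadherin clusters and transcript lengths were described apart as alternatives chosen after seeing the data. No paired analysis was possible because the labels number no replicates across the groups. The 2 shock-only pools limit what can be seen.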
